A study of Mus musculus with 6 samples.

Results

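The genes described here are 32 members of the MYC, nucleolar and ribosome biogenesis programme: 3 genes of the MYC network, 22 genes whose proteins make ribosomal RNA or assemble ribosomal subunits, 3 enzymes of polyamine and pyrimidine synthesis and 4 translation factors. Each was taken from the deposited count table by matching its Ensembl ID to its symbol, and all 32 were found among 28786 gene IDs, 1 ID each. All 32 passed the filter on low counts that left 13662 genes for testing, and the smallest count of any member in any library was 311. Donor animals were C57BL/6 mice, wild type, 6 to 8 weeks old, and the cells were taken from bone marrow. In each library 1500 cells were sorted as haematopoietic stem cells (HSCs), that is Lin-, Sca-1+ (written Scal1+ in the labels), c-Kit+, CD48- and CD150+, and assigned to a TMRM-high group (n = 3 libraries) or a TMRM-low group (n = 3 libraries). TMRM, tetramethylrhodamine methyl ester, is a fluorescent dye that gathers in mitochondria according to their membrane potential. The labels do not say how many mice each library came from or whether libraries of a group came from different mice, so p-values measure the spread between these libraries, which may be technical.

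MYC is a transcription factor that pairs with MAX, binds the E-box CACGTG and drives genes of ribosome production. Ribosomes are built in the nucleolus, where RNA polymerase I transcribes the precursor of ribosomal RNA, small nucleolar ribonucleoproteins modify it, and assembly factors cleave it and fold it into the small and large subunits. Ribosome production and protein synthesis are known to be held low in resting HSCs and to rise when these cells start to divide or differentiate.

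Promoter sequence is shown first for the members whose RNA differed between the groups and whose promoter was in the RefSeq table used (GRCm38.p6), together with a pair of members in which the E-box lies just before the start site. Each run is written 5' to 3' on the strand of the gene, is limited to bases that no annotated exon covers, and has CACGTG in capitals. The Ncl run (chr1:86359456-86359573, minus strand) ends 1 base before the start site, as does that of Eif4a1 (chr11:69672424-69672673, minus strand). Those of Nop58 (chr1:59684756-59684970, plus strand) and Odc1 (chr12:17544623-17544793, plus strand) start 250 bases before it. The Nop2 run is chr6:125131801-125131850 and the Eef2 run chr10:81176566-81176615, both on the plus strand.
Ncl: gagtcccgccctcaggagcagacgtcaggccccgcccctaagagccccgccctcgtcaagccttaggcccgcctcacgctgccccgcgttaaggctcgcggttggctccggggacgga
Nop58: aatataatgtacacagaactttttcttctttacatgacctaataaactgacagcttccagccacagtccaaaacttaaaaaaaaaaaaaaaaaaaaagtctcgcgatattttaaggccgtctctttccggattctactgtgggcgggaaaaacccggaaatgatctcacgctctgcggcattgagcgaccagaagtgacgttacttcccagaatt
Odc1: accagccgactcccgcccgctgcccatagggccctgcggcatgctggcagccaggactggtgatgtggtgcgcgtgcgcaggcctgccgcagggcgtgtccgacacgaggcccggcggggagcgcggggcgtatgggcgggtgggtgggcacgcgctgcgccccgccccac
Eif4a1: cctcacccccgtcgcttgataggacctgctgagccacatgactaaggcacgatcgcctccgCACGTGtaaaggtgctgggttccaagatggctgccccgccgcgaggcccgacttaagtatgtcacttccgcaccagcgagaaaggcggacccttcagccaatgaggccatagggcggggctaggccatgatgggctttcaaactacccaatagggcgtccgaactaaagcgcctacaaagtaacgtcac
Nop2: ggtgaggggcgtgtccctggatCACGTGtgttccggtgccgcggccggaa
Eef2: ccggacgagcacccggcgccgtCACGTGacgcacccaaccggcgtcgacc

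In windows from 250 bases before to 50 bases after a RefSeq start site, CACGTG, which reads the same on both strands, was found for 7 of the 24 members with a promoter in the table (29.2%). The 7 were Eif4a1, Eif4e, Nop2, Eef2, Utp20, Pes1 and Max. The same search found it for 8.09% of 27025 genes with a promoter, and for 11.6% of the 10242 of these tested here. Of the 172 genes with a promoter in the pathway lists described further on, 20.9% held it. Among the members that differed between the groups, Eif4a1 held it 189 bases before the start, and the windows of Ncl, Nop58 and Odc1 did not contain these letters. In Nop2 it began 60 and in Eef2 43 bases before the start. TATAAA, searched on both strands, was found for 4 of the 24 members, or 16.7% (Ppan, Eef2, Pes1 and Dkc1). In Dkc1 it lay on the opposite strand only. The same search found it for 15.7% of the 27025 genes with a promoter and for 8.95% of the genes tested here. Bop1, Eif4ebp1, Fbl, Myc, Npm1, Rrp12, Rrs1 and Srm had no entry. A match describes the sequence and does not show that a factor binds there.

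Totals of the estimated counts were 14270069 to 22070594 in TMRM-high libraries, against 15930495 to 18431567 in TMRM-low libraries. The 3 TMRM-high libraries were much more alike than the 3 TMRM-low libraries, with a biological coefficient of variation of 7.26% against 42.0% taken over the genes that averaged 50 counts or more. Marker lists of blood cell types moved with the groups. Of 10 genes each, 9 granulocyte and monocyte, 10 B lineage, 6 erythroid, 7 G2/M and 10 immediate early genes were higher in TMRM-high libraries and none was lower. Of the other lists, 2 of 10 megakaryocyte markers were higher and 1 lower, 5 of 9 tested basophil and mast cell markers were higher, and 1 of 8 tested T and NK markers was higher and 4 lower. Of 10 HSC markers 4 were lower and none higher. Summed granulocyte and monocyte markers ran from 14822 to 15177 CPM in TMRM-high libraries, against 3880 to 4170 CPM in TMRM-low libraries, G2/M markers from 1760 to 1786 and from 1175 to 1266 CPM, and HSC markers from 574 to 576 and from 890 to 983 CPM. For B lineage markers the sums were 1617 to 1644 and 362 to 452 CPM, for erythroid markers 233 to 261 and 54.6 to 67.7 CPM, and for megakaryocyte markers 463 to 476 and 237 to 260 CPM. They were 527 to 534 and 193 to 213 CPM for basophil and mast cell, 611 to 618 and 352 to 441 CPM for T and NK, and 7763 to 8118 and 4453 to 4810 CPM for immediate early markers. The T and NK sum was set by Nkg7, its most abundant gene: without it the sums were 56.8 to 61.8 CPM in TMRM-high libraries and lay the other way, at 161 to 203 CPM, in TMRM-low libraries. For the other 8 marker lists, leaving out the most abundant gene kept the direction. No gene of these lists was at 0 in all libraries of a group. The part of these differences in the member values was not tested. In bulk libraries, fewer cells of a type and less RNA per cell cannot be told apart.

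Few members of the programme differed between the groups, and none by 2-fold. Of the 32 members, 3 were lower in TMRM-high libraries (Myc, Ncl and Nop58), 2 were higher (Odc1 and Eif4a1) and 27 did not pass, at a Benjamini-Hochberg adjusted p below 0.05 over all genes tested. Over those 13662 genes, 5.84% were higher and 5.12% lower by the same rule, 11.0% in all, against 15.6% of the members. Among the 5976 genes whose mean level lay in the range of the members (29.6 to 1765 CPM), 15.2% were called, close to the share of the members. CPM are counts scaled to library size, here by the trimmed mean of M-values (TMM). A positive log2 fold change means a higher level in TMRM-high libraries; fold changes and their standard errors (SE) come from edgeR's quasi-likelihood test. In that range of levels, 3.93% of genes differed by at least 2-fold. The 95% intervals of 31 members lay within a 2-fold change in either direction, the exception being Rrp12, and those of 22 lay within a 1.5-fold change. Like the p-values, these intervals measure the spread between these libraries, which may be technical. The fit took the same spread for both groups of a gene, although the TMRM-low libraries varied more.

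Most members had the lower mean in TMRM-high libraries. The log2 fold change was negative for 25 members and positive for 7, with a median of -0.13, where all tested genes had a median of -0.03 and genes in the same range of levels one of -0.00112, with 50.2% negative. The groups did not overlap, with TMRM-high lower, for 9 members: Myc, Ncl, Npm1, Fbl, Nop58, Dkc1, Utp20, Nop2 and Nop16. They did not overlap with TMRM-high higher for 4: Rrs1, Odc1, Eif4e and Eif4a1. The same held for 17.0% and 18.4% of all tested genes. Of the 5976 genes in the same range of levels, the groups were apart for 1164 with TMRM-high lower and for 1283 with TMRM-high higher. Summed over the 32 members, the TMRM-high libraries held 8092, 7856 and 7917 CPM and the TMRM-low libraries 8670, 8312 and 8498 CPM. Every TMRM-high sum was below every TMRM-low sum, but this separation depended on the called member Ncl. With Ncl left out, the highest TMRM-high sum lay above the lowest TMRM-low sum, so the groups overlapped. A shift of the whole programme is therefore not read from these sums.

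**Figure D1:**
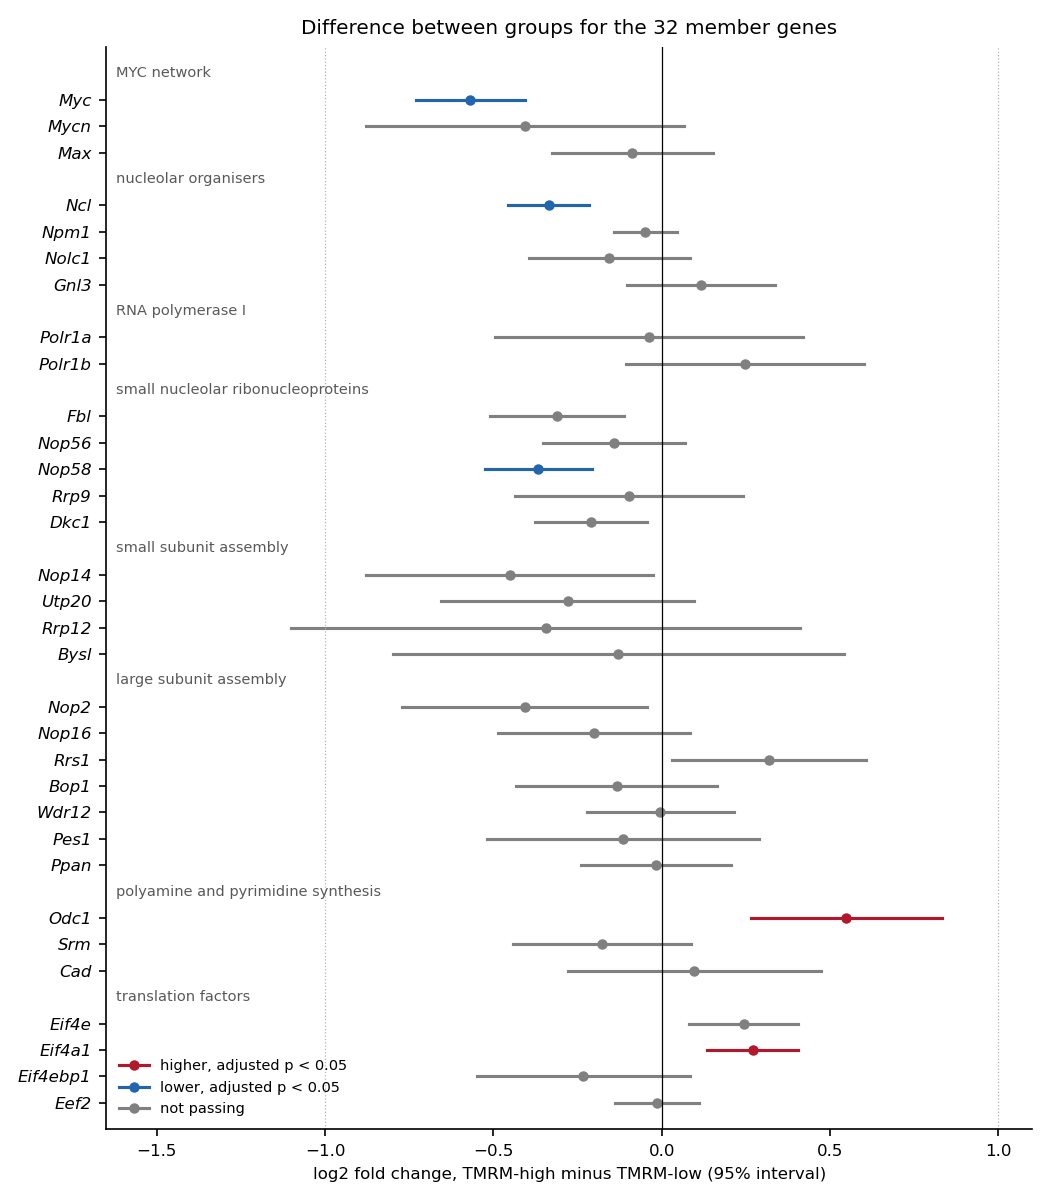
Log2 fold change (TMRM-high minus TMRM-low) of each of the 32 members on the x axis, with its 95% interval as a line, grouped by role on the y axis; dotted lines mark a 2-fold change. Myc, Ncl and Nop58 (blue) lie below 0 and Odc1 and Eif4a1 (red) above it, and the interval of Rrp12 alone crosses a dotted line.

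With the TMRM-high libraries summed into 1, so that the spread came from the TMRM-low libraries alone, edgeR called none of the 32 members, against 128 of all genes. In the main fit, 4 members were higher and 7 lower at an unadjusted p below 0.05. The share of all genes at that threshold was not counted, so these counts are not read as a result about the members. Log2 fold changes of the 5 called members moved by little in the summed fit, as summing leaves the TMRM-high level nearly as it was. DESeq2, with all 6 libraries, called 3 members higher and 5 lower. It also called more genes over the whole set, 2661 of 13662 against 1498 in the main fit.

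Expression of Myc itself (ENSMUSG00000022346, chromosome 15, 61985391 to 61990374 on GRCm38), the master regulator of the programme, was lower in TMRM-high libraries. The 3 TMRM-high libraries held 244, 235 and 237 CPM and the 3 TMRM-low libraries 382, 338 and 341 CPM. Every TMRM-high library was below every TMRM-low library, with means of 239 ± 4.43 and 354 ± 24.7 CPM (SD, n = 3). The level was 1.48-fold lower, a log2 fold change of -0.57 (SE 0.0697, 95% interval -0.73 to -0.41, edgeR adjusted p = 0.00222). Of 15 alternative fits 14 called Myc too, and the exception was the fit on summed TMRM-high libraries (log2 fold change -0.56, adjusted p = 0.28).

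Mycn, the paralog that acts alongside Myc in blood stem cells, was at 34.9, 40.8 and 33.4 CPM in TMRM-high libraries, against 54.3, 35.8 and 54.5 CPM in TMRM-low libraries. TMRM-low replicate 2 fell inside the range of the TMRM-high libraries, and the difference did not pass (log2 fold change -0.41, SE 0.203, adjusted p = 0.27). Without that library it passed (adjusted p = 0.039). Leaving out TMRM-low replicate 1, 2 or 3 raised the calls over all genes, from 1498 to 2210, 2281 and 2572. Calls that members gained in these fits are thus not particular to them. Max, the partner that both proteins need to bind DNA, was at 94.6, 95.7 and 95.2 CPM against 105, 89.8 and 109 CPM, with a log2 fold change of -0.09 (95% interval -0.33 to 0.15).

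Of 12 other genes of the network, 1 was higher, none was lower and 11 did not pass, and the median log2 fold change was 0.38. The gene that rose was Mxi1, which encodes a MAX partner that represses MYC targets, at 53.3 ± 6.37 CPM against 34.0 ± 3.84 CPM (log2 fold change 0.65, SE 0.163, adjusted p = 0.0427). The share called in this list was 8.33%, against 11.0% of all genes.

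Among the abundant organisers of the nucleolus, nucleolin RNA fell and nucleophosmin RNA did not pass the test. Ncl (ENSMUSG00000026234, chromosome 1, 86344719 to 86359400) encodes nucleolin, which binds ribosomal RNA precursors. It was at 989, 939 and 943 CPM in TMRM-high libraries, against 1222, 1253 and 1145 CPM in TMRM-low libraries. The groups were apart, and the log2 fold change was -0.34 (SE 0.0519, adjusted p = 0.00687), or 1.26-fold lower. The call was lost without TMRM-high replicate 2 (adjusted p = 0.055) or 3 (0.058). Leaving out TMRM-high replicate 1, 2 or 3 lowered the calls over all genes, from 1498 to 453, 459 and 431. Calls that members lost in these fits, here and below, are thus not particular to them. Npm1, which encodes the histone and ribosome chaperone nucleophosmin, was at 1418, 1438 and 1445 CPM against 1463, 1471 and 1513 CPM. These groups did not overlap either, but the difference was small, with a log2 fold change of -0.05 and a 95% interval of -0.14 to 0.05. The interval of Ncl, -0.46 to -0.21, did not overlap that of Npm1.

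Nolc1, a chaperone of small nucleolar ribonucleoproteins, was at 113 ± 5.04 against 126 ± 13.6 CPM. Gnl3, which encodes the GTPase nucleostemin of stem and progenitor cells, was at 159 ± 1.68 against 146 ± 15.6 CPM. Neither passed, and their log2 fold changes were -0.16 and 0.12. The sum over these 4 genes was 2642 to 2685 CPM in TMRM-high libraries, against 2921 to 2996 CPM in TMRM-low libraries.

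The 2 largest subunits of RNA polymerase I did not differ beyond the spread of the TMRM-low libraries. Polr1a was at 37.3, 35.9 and 35.3 CPM in TMRM-high libraries, against 37.5, 45.4 and 28.6 CPM in TMRM-low libraries (log2 fold change -0.04, 95% interval -0.50 to 0.42). Polr1b was at 54.2 ± 2.22 against 45.7 ± 6.98 CPM (0.25, 95% interval -0.11 to 0.60). Of 14 other polymerase I subunits and initiation factors, 1 was higher (7.14% called, against 11.0% of all genes) and 13 did not pass. It was Taf1d, a subunit of the promoter selectivity factor, at 101 ± 2.39 against 70.2 ± 8.49 CPM (log2 fold change 0.53, SE 0.116, adjusted p = 0.027).

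All 5 members of the small nucleolar ribonucleoproteins had lower means in TMRM-high libraries, and 1 of them passed. Nop58 (ENSMUSG00000026020, chromosome 1, 59684971 to 59719044), a core protein of the box C/D particles that guide methylation of ribosomal RNA, was at 214, 215 and 221 CPM in TMRM-high libraries. In TMRM-low libraries it was at 262, 294 and 282 CPM. No TMRM-high value reached the lowest TMRM-low value, and the log2 fold change was -0.37 (SE 0.0687, adjusted p = 0.0149). Leaving out any 1 TMRM-high library ended the call (adjusted p = 0.090 to 0.10). Fbl, which encodes the methyltransferase fibrillarin of the same particles, was at 188, 171 and 170 CPM against 231, 199 and 226 CPM. Its groups were apart too, and it fell just short of the threshold (log2 fold change -0.31, SE 0.0862, adjusted p = 0.0595). DESeq2 called it (adjusted p = 0.012), as did edgeR without TMRM-low replicate 2 (0.021), with upper-quartile scaling (0.049) and with the stricter filter on low counts (0.0485).

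Nop56, the other scaffold protein of these particles, was at 286 ± 5.34 against 315 ± 37.2 CPM and its groups overlapped, and it passed without TMRM-low replicate 3 (adjusted p = 0.047). Rrp9, which binds the U3 particle needed for the first cleavages, was at 51.2 ± 3.12 against 54.8 ± 7.08 CPM. Dkc1 encodes dyskerin, the pseudouridine synthase of box H/ACA particles and a part of telomerase. It was at 254, 262 and 246 CPM against 273, 298 and 311 CPM, apart but not passing (log2 fold change -0.21, adjusted p = 0.107), though DESeq2 called it (0.043), as did edgeR without TMRM-low replicate 1 (0.038). The 5 genes together held 967 to 1002 CPM in TMRM-high libraries, against 1154 to 1174 CPM in TMRM-low libraries. Of 12 other genes for the particles and their assembly, 2 were lower (16.7% called, against 11.0% of all genes) and 10 did not pass. The 2 were Ruvbl2, an ATPase of the assembly complex (log2 fold change -0.33, SE 0.0817), and Pih1d1, a cofactor of that complex (-0.47, SE 0.123).

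**Figure D2:**
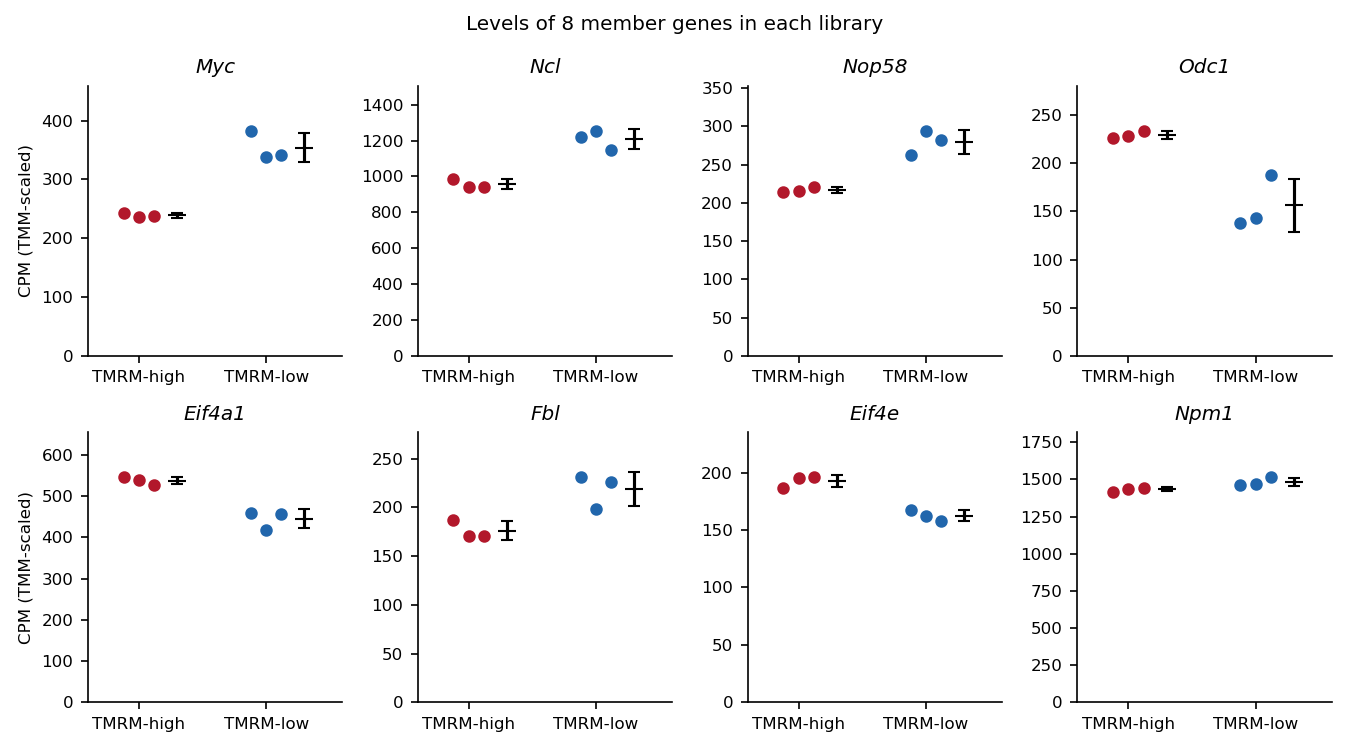
Levels in CPM (y axis, from 0) of 8 members in each TMRM-high (red) and TMRM-low (blue) library, with the mean and SD (n = 3) beside the points. Myc is at 235 to 244 CPM in TMRM-high libraries, against 338 to 382 CPM in TMRM-low libraries, while Npm1 differs by under 100 CPM between any 2 libraries.

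None of the 4 assembly factors of the small subunit passed, and in TMRM-low libraries Rrp12, Bysl and Nop14 varied widely. Nop14, a factor of the processome that forms on the nascent RNA, was at 51.6, 52.7 and 57.4 CPM in TMRM-high libraries, against 85.9, 54.4 and 80.8 CPM in TMRM-low libraries. One TMRM-low library lay among the TMRM-high values, and the log2 fold change of -0.45 (SE 0.184) had an adjusted p of 0.171. Without that library, replicate 2, Nop14 passed (adjusted p = 0.015). Utp20, a scaffold of the same particle, was at 28.4, 28.1 and 30.3 CPM against 38.3, 31.6 and 35.4 CPM, apart but not passing. Rrp12, needed for export of the subunit, was at 26.1 ± 1.75 against 33.1 ± 14.4 CPM, with the widest interval of the members (-1.10 to 0.41). Bysl, which encodes bystin, was at 34.9 ± 5.69 against 38.1 ± 13.3 CPM. Bysl shares 361 exon bases with Ccnd3 on the other strand, so reads of the 2 genes can be mixed in libraries that do not mark strand.

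Of 40 other genes of small subunit assembly 39 were tested, 1 was higher, 1 was lower and 37 did not pass. Ltv1, an export adaptor, rose (log2 fold change 0.63, SE 0.162) and Utp6, a processome component, fell (-0.53, SE 0.134). The called share, 5.13%, was below the 11.0% of all genes.

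None of the 7 large subunit factors passed. Nop2, a methyltransferase of ribosomal RNA, was at 77.9, 72.4 and 78.9 CPM in TMRM-high libraries, against 96.6, 82.7 and 125 CPM in TMRM-low libraries. Its groups were apart, with a log2 fold change of -0.41 (SE 0.157, adjusted p = 0.15), and it passed without TMRM-low replicate 2 (adjusted p = 0.043). Rrs1, which brings the 5S particle into the subunit, went the other way, at 78.1, 77.9 and 67.6 CPM against 65.5, 57.2 and 56.5 CPM (0.32, SE 0.125, adjusted p = 0.15). Nop16 was at 101 ± 1.73 against 116 ± 18.2 CPM.

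The PeBoW complex, which processes the precursor of the large subunit RNA, showed no member past the threshold. Its genes Pes1, Bop1 and Wdr12 were at 109 ± 6.74, 73.1 ± 6.67 and 115 ± 3.50 CPM in TMRM-high libraries. In TMRM-low libraries they were at 118 ± 28.2, 80.1 ± 8.86 and 115 ± 9.57 CPM. Wdr12 had the smallest difference of all members, with a 95% interval of -0.22 to 0.21. Ppan, another large subunit factor, was at 115 ± 4.59 against 116 ± 9.998 CPM. Of 47 other large subunit genes, 3 were lower (6.38% called, against 11.0% of all genes) and 44 did not pass. The 3 were Wdr18 (log2 fold change -0.68, SE 0.127), a part of the rixosome that processes the internal spacer, the helicase gene Ddx24 (-0.52, SE 0.109) and Nop53 (-0.52, SE 0.117).

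Of the 3 enzymes of polyamine and pyrimidine synthesis, 1 rose and the other 2 did not pass. Odc1 (ENSMUSG00000011179, chromosome 12, 17544794 to 17551505) encodes ornithine decarboxylase, the rate-limiting enzyme of polyamine synthesis and a well known MYC target. The 3 TMRM-high libraries held 226, 228 and 234 CPM and the TMRM-low libraries 138, 144 and 188 CPM. All TMRM-high values were above the TMRM-low values, of which replicate 3 came closest. The increase was 1.46-fold (log2 fold change 0.55, SE 0.122, 95% interval 0.27 to 0.83, adjusted p = 0.0291). The call was lost without any 1 TMRM-high library (adjusted p = 0.12 to 0.14), and without TMRM-low replicate 1 (0.051) or 2 (0.059). Srm, which encodes the spermidine synthase that follows, was at 176 ± 6.11 against 199 ± 29.9 CPM and did not pass. Cad, the enzyme of the first 3 steps of pyrimidine synthesis, was at 68.9, 68.6 and 74.2 CPM against 67.8, 52.0 and 78.2 CPM (log2 fold change 0.10, 95% interval -0.28 to 0.47).

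Of 18 other polyamine genes 14 were tested, and 1 was higher (7.14% called, against 11.0% of all genes). Sat1, which encodes the acetyltransferase that starts polyamine breakdown and export, rose to 286 ± 2.36 CPM from 128 ± 5.08 CPM (log2 fold change 1.16, SE 0.0678). In nucleotide synthesis, 2 of 25 genes were higher and 3 lower, so 20.0% were called, against 11.0% of all genes. The inosine monophosphate dehydrogenase genes split: Impdh1 rose from 71.1 ± 2.86 to 103 ± 5.18 CPM and Impdh2 fell from 285 ± 12.3 to 225 ± 3.86 CPM. Pfas, of purine synthesis, rose (log2 fold change 0.56, SE 0.103). Shmt2, which supplies mitochondrial one-carbon units (-0.65, SE 0.138), and the phosphoribosyl pyrophosphate synthetase gene Prps2 (-0.82, SE 0.174) fell.

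Of the 4 translation factors, 1 rose and 3 did not pass. Eif4a1 (ENSMUSG00000059796, chromosome 11, 69666936 to 69672423), the helicase of the cap-binding complex eIF4F, was at 545, 539 and 527 CPM in TMRM-high libraries, against 460, 418 and 457 CPM in TMRM-low libraries. The groups were apart, and the log2 fold change was 0.27 (SE 0.0582, adjusted p = 0.0249), or 1.21-fold. Without any 1 TMRM-high library it did not pass (adjusted p = 0.12 to 0.14). Eif4e, the cap-binding subunit, was at 186, 196 and 196 CPM against 167, 162 and 158 CPM, again apart but just short of the threshold (0.24, SE 0.0700, adjusted p = 0.0655). It passed with DESeq2 (adjusted p = 0.00587), with total-count scaling (0.049) and without TMRM-low replicate 1 (0.041).

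Eif4ebp1 encodes 4E-BP1, the repressor that holds eIF4E when mTOR is inactive. It was at 83.6, 76.2 and 77.3 CPM in TMRM-high libraries, against 99.7, 103 and 76.1 CPM in TMRM-low libraries, of which replicate 3 lay below all TMRM-high values. Without that library it passed as lower (adjusted p = 0.042). Eef2, the elongation factor that moves the ribosome along the message, was the most abundant member in CPM, at 1822, 1698 and 1748 against 1837, 1665 and 1818 CPM. Its 95% interval, -0.14 to 0.11, was narrow and included 0.

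Of 40 further translation factors, 5 were higher, 4 lower and 31 did not pass, so 22.5% were called. The initiation factor gene Eif1, which keeps start codon choice strict, rose to 941 ± 10.6 CPM from 719 ± 28.5 CPM (log2 fold change 0.39, SE 0.0493). Eif4g2, a scaffold for initiation without the cap-binding subunit (0.42, SE 0.0714), and the release factor gene Etf1 (0.37, SE 0.0868) rose as well. Eef1d, an exchange factor of elongation (-0.49, SE 0.0702), and the eIF3 subunit genes Eif3d (-0.37, SE 0.0780) and Eif3c (-0.33, SE 0.0763) fell. Over the 8 pathway lists together, 11 of 203 tested genes were higher and 13 lower, 11.8% in all, against 11.0% of all genes. Of the pathway genes named here, Sat1, Eif1 and Eef1d kept their call when any 1 library was left out, and each of the others lost it without any 1 TMRM-high library. Calls over all genes fell in those fits too, as given with Ncl, so these losses are not particular to the pathway genes.

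**Figure D3:**
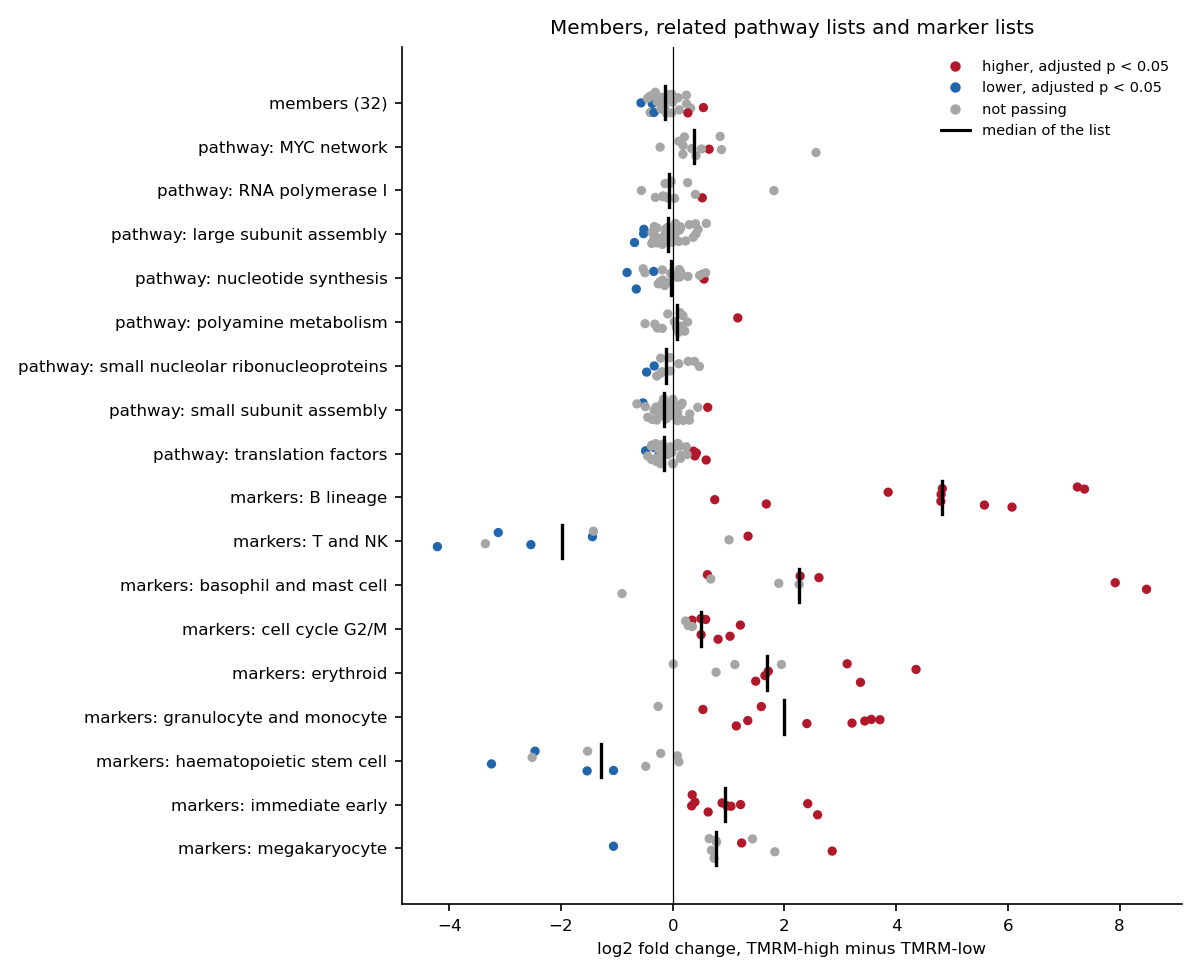
Log2 fold change (x axis, TMRM-high minus TMRM-low) of each tested gene in the 32 members, the 8 pathway lists and the 9 marker lists (y axis), with called genes in red or blue and the median of each list as a black bar. The members lie between -0.57 and 0.55, while B lineage markers reach 7.37 and T and NK markers -4.21.

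Ordered by level per kilobase of coding sequence, the members kept nearly the same order in both groups. Npm1 was highest, at 1637 ± 15.9 CPM per kilobase in TMRM-high libraries, against 1692 ± 30.7 in TMRM-low libraries, followed by Eef2 at 682 ± 24.2 and 689 ± 36.6. Next came Ncl (451 ± 13.1 and 569 ± 26.2) and Eif4a1 (441 ± 7.37 and 365 ± 19.0), whose values in TMRM-high libraries differed by less than 1 SD of Ncl. Myc stood at place 6 in TMRM-low libraries (260 ± 18.1) and place 11 in TMRM-high libraries (175 ± 3.25). Mycn was at place 25 and 26, with 34.8 ± 7.77 and 26.3 ± 2.83. The genes Cad, Polr1a, Rrp12 and Utp20 were lowest in both groups, with Utp20 at 3.46 ± 0.141 and 4.20 ± 0.403. The lengths leave out untranslated regions, so this order is approximate.

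At the median, members varied less between libraries of a group than genes at like levels. Their median coefficient of variation was 3.77% in TMRM-high libraries, against 10.9% in TMRM-low libraries, against 4.61% and 16.3% over genes in the same range of levels. Npm1 varied least in TMRM-low libraries (1.81%) and Rrp12 most (43.4%). The wider spread of TMRM-low libraries was also that of the whole table.

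**Figure D4:**
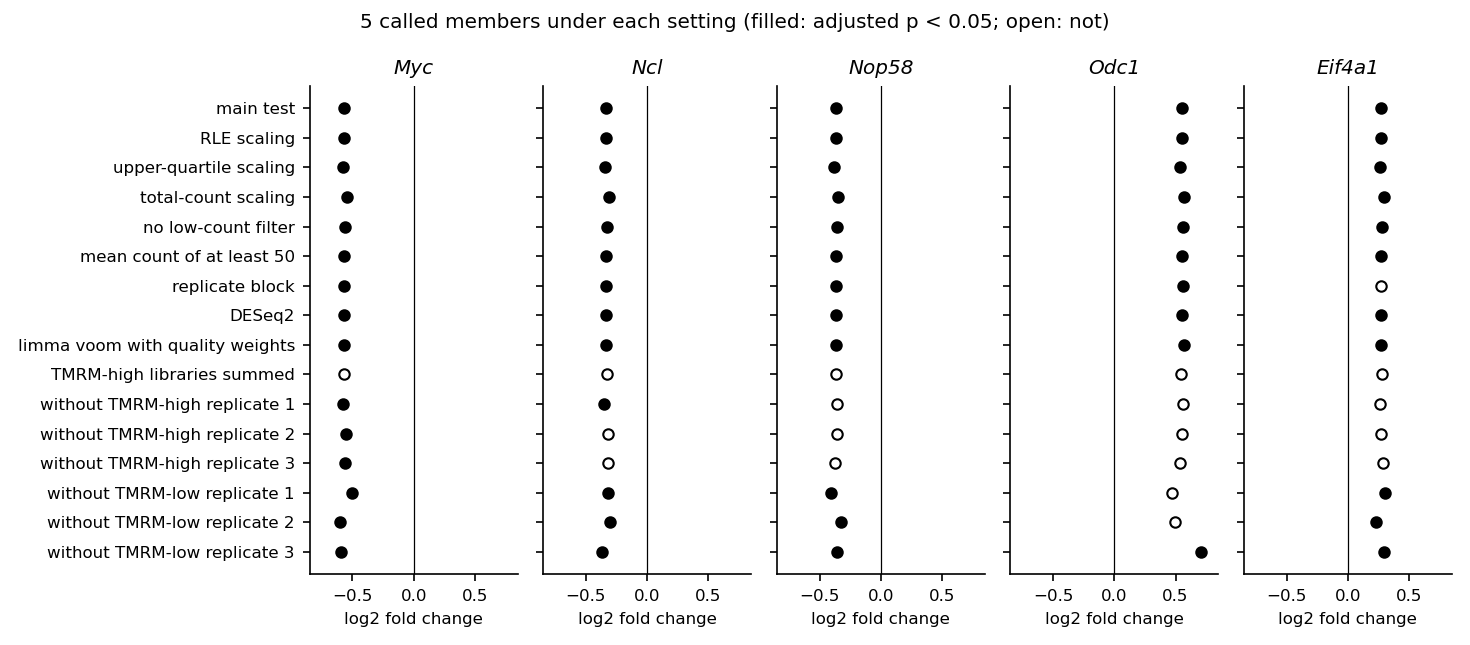
Log2 fold change (x axis) of the 5 called members under the main test and 15 alternative fits (y axis); filled points have an adjusted p below 0.05. Every point of Myc, Ncl and Nop58 lies below 0 and every point of Odc1 and Eif4a1 above 0, and all 5 points are open with the TMRM-high libraries summed.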

How the data were processed

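RNA of 6 libraries was measured after reverse transcription, 13 cycles of PCR and tagmentation, with paired reads of 150 bases, per the labels' protocols. No strand or molecular identifier is described, so PCR copies count as reads, and 8 members share 5 to 361 exon bases with a protein-coding gene on the other strand. The authors deposited estimated counts per Ensembl gene ID, 1 column per library. Trim Galore 0.5.0, Salmon (listed as 0.03.1) and GRCm38 were used, per the submitters' processing notes, and for annotation and settings the sources used here are silent. Reads that fit several similar transcripts are shared out by Salmon, so close gene copies can exchange counts.

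Counts were rounded. Symbols and positions came from GENCODE M21 (GRCm38) for 27728 of 28786 IDs. Genes were kept by filterByExpr, scaled by TMM and tested with edgeR 4.0.16 (glmQLFit, glmQLFTest, robust, group as the only term) in R 4.3.3, two-sided, with Benjamini-Hochberg adjustment over all genes tested. SE is the log2 fold change divided by the square root of F, and intervals use the degrees of freedom of that test. As alternatives, each library was left out in turn, the TMRM-high libraries were summed, scaling was by RLE, total count or upper quartile, the filter was dropped or raised to an average of 50 counts, the test was DESeq2 1.42.0 or limma 3.58.1 (voom, sample weights), replicate number entered as a block, and the threshold was 0.10.

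Members and lists were chosen with earlier results of these data known. All members are named; of each pathway list, up to 3 called genes per direction with the smallest p were eligible, or 2 where none was called. Coding lengths are of GENCODE's principal transcript. Promoters are RefSeq windows of 300 bases.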

Additional observations from a re-analysis of the deposited data

How the results depend on the processing

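Of 480 refitted values of single members (32 members, 15 alternative fits), 432 kept direction and side of the threshold, 19 lost a call, 14 gained one and 15 changed sign. Those 15 were all in 7 members without a call, and the cause was not tested. With 1 library left out, the log2 fold change ran from -0.19 to 0.13 for Polr1a, -0.39 to 0.064 for Bysl, -0.051 to 0.066 for Wdr12, -0.29 to 0.045 for Pes1, -0.059 to 0.057 for Ppan, -0.047 to 0.24 for Cad and -0.056 to 0.017 for Eef2. With total-count scaling Wdr12 (0.015), Ppan (0.0025) and Eef2 (0.0063) changed sign, and with no low-count filter Wdr12 (0.0044). No scaling moved the median of all genes by over 0.1.

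With DESeq2, 5 members were lower, 1324 genes higher and 1337 lower, and 28 pathway genes lower. With the TMRM-high libraries summed, 0 members were higher and 0 lower, 86 genes were higher and 42 lower, and 1 pathway gene was higher and 0 lower. At an adjusted p below 0.10, 1138 genes and 26 pathway genes were lower. With limma voom, 7 pathway genes were higher. With 1 library left out, members higher ran from 0 to 2 and lower from 1 to 7, all genes higher from 250 to 1398 and lower from 181 to 1174, and pathway genes higher from 2 to 16 and lower from 1 to 23. The low ends all came from leaving out a TMRM-high library, and the high ends from leaving out a TMRM-low library. Without TMRM-low replicate 2, 1 member was higher and 7 were lower, and without TMRM-low replicate 3, 5 were lower.

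The replicate numbers are not said to mark a shared mouse or day, and deviations of same-numbered libraries correlated at -0.01 to 0.02. Of 6 libraries 4 correlated best with their own number. With the replicate number as a block, 1 member was higher (Odc1), with Eif4a1 at an adjusted p of 0.0528, and 3 were lower, 6 pathway genes were higher, and 449 genes were lower. The smallest count of a member in a library was 311, and since PCR copies are counted as reads, how far depth limits these values was not tested.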

Other observations

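The ratios and the grouping in these paragraphs were chosen after the values were seen and are given as values only. Within a library, a ratio of 2 genes does not depend on scaling. The ratio of Eif4e to its repressor Eif4ebp1 (CPM over CPM) was 2.23, 2.57 and 2.53 in TMRM-high libraries and 1.68, 1.58 and 2.08 in TMRM-low libraries. Myc to Mxi1, an antagonist that shares its partner Max, stood at 4.66, 3.92 and 4.99 in TMRM-high and 12.9, 9.49 and 9.30 in TMRM-low libraries. Ncl to Npm1 was 0.697, 0.653 and 0.652 against 0.835, 0.852 and 0.757. Odc1 and Sat1, which act at the start of polyamine synthesis and of polyamine breakdown, were both higher in TMRM-high libraries, and their ratio was 0.796, 0.794 and 0.809 against 1.07, 1.17 and 1.42. None of these 4 ratios overlapped between the groups. For Myc to Mxi1 this was fixed by the choice, as each gene was already apart, in opposite directions. The share of all gene pairs whose ratio does not overlap was not counted, so no result is read from this.

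Many members carry genes of small nucleolar RNAs, which guide modification of ribosomal RNA, inside their own gene. By GENCODE this held for 9 of the 32 members (Ncl, Gnl3, Nop56, Nop58, Dkc1, Ppan, Odc1, Eif4a1 and Eef2), with 23 such RNA genes in all, against 1.72% of all tested genes. Of those 9 members 2 were higher and 2 lower, and of the other 23 members 1 was lower and none higher. Of 235 tested genes that carry such RNA genes, 16 were higher and 31 lower, so 20.0% were called, against 11.0% of all tested genes. Among genes in the members' range of levels 15.2% were called. The 235 genes were not compared with genes at their own levels, so no result is read from these shares. The counts are those listed under the host genes, and the small RNAs in the members had no ID of their own there. Some share bases with annotated exons of their host on the same strand. Among these are Snora75 in Ncl (133 bases), Gm26293 in Nop58 (84) and Gm24029 and Gm22988 in Eif4a1 (143 and 144). How far reads of the small RNAs enter the host counts was not tested.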
